A study of Mus musculus with 62 samples.

Results

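Neocortex of mice bearing cachexia-inducing melanoma was compared with neocortex of mock-injected mice 6 weeks after injection, in 10 of the 62 libraries of the series. The CAC libraries were all 5 that the expression table names for cachectic melanoma cells at 6 weeks, and the mock libraries were all 5 named for mock injection at 6 weeks. Female mice had been injected at 2 months of age, and each library is labelled a biological replicate of its group. A further 5 libraries at 6 weeks came from mice given melanoma cells that do not cause cachexia (NCAC). The series holds the same 3 arms at 2, 4, 6 and 8 weeks in 12 groups. The design text names NCI Ath/nude mice, a strain without a thymus, whereas the sample labels name C57BL6/J, so the strain cannot be told from the sources used here. All tumour-bearing mice carry implanted melanoma cells whose line the labels do not name, and the protocol text mentions LLC cells at 3 weeks, which match none of these groups. Libraries were made with a stranded mRNA kit from whole neocortex, in which neurons, glia and vessels are measured together. The 15 libraries of week 6 were all run on lane 4.

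Some tumours cause cachexia, in which muscle and fat are lost. Cytokines from the tumour and host, such as interleukin 1, interleukin 6 and tumour necrosis factor, act on the brain in part through the endothelium of its vessels, whose cells carry the matching receptors and respond through NF-kB and STAT3. Such illness can also raise adrenal glucocorticoids, which enter the brain and switch on a known set of genes through the glucocorticoid receptor, among them Fkbp5. Food shortage shifts tissues from glucose and lipid synthesis to stored fuels.

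Depth was estimated at 47.1 to 50.6 M reads per library in the CAC and mock groups, and 1 TPM (a length-corrected transcript level scaled to the same sum in every library) of a transcript with 2000 exon bases came to 27.9 reads. Marker genes were those of neocortex, with Slc17a7, the glutamate transporter of cortical excitatory neurons, at 952 to 1158 TPM in the 10 libraries, and the T cell marker Cd3e at 0 in all 5 CAC libraries and 4 of the 5 mock libraries. In 3 libraries other markers stood apart. CAC replicate 1 had a mean log2(TPM + 1) of 3.33 over 14 hypothalamus and pituitary genes, against 1.19 to 1.93 among CAC replicates 2 to 5 and 1.13 to 2.05 among the mock libraries. CAC replicate 2 had a summed level of 1501 TPM over 18 microglia markers, against 685 to 727 TPM in the remaining CAC libraries and 756 to 941 TPM in the mock libraries. Mock replicate 1 had 242 TPM over 8 immunoglobulin and B cell genes, against 21.95 to 38.9 TPM in the CAC libraries and 51.6 to 63.5 TPM in the other mock libraries. The choroid plexus list ranged widely within both groups, from 191 to 3022 TPM in CAC and from 243 to 3350.0 TPM in mock.

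Of 15115 tested genes 240 passed an adjusted p of 0.05 between CAC and mock neocortex at 6 weeks, which is 1.59% of the tested genes, by limma on log2(TPM + 1). Higher levels in CAC made up 179 of them (1.18% of tested genes) and lower levels 61 (0.404%). At an unadjusted p under 0.05 there were 2115 genes (14% of tested genes). Every CAC library lay above every mock library in 130 of the called genes and below in 44, while over all tested genes 391 (2.59%) lay fully above and 157 (1.04%) fully below. Among the 15 largest rises were Lrg1 and Lcn2 of the acute phase, Sult1a1 and Map3k6 of the glucocorticoid list and Etnppl of astrocytes, and among the 15 largest falls Gkn3, Alpl, Apln and Kdr of endothelium and Opalin and Ugt8a of oligodendrocytes. The median log2 fold change of all tested genes was 0.03, and scaling by a trimmed mean (TMM) brought it to 0.00 and gave 116 higher and 100 lower genes. With mitochondrially encoded genes removed and TPM rescaled there were 109 higher and 122 lower genes. TMM scaling kept 164 of the 240 calls and this removal 165. Without CAC replicate 1 there were 56 calls, all of them among the 240, and without CAC replicate 3 there were 420. Without CAC replicate 4, mock replicate 3 and mock replicate 4 there were 138, 96 and 136. Leaving out CAC replicates 1 and 2 and mock replicate 1 together, which left 3 CAC and 4 mock libraries, gave 23 calls, 22 of them among the 240.

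The genes with the largest folds were low in mock neocortex. Scgb3a1, a small secretoglobin known from airway secretions, was at 7.205, 2.81, 9.43, 11.9 and 1.82 TPM in CAC replicates 1 to 5, against 0.355, 0.343, 0.369, 0.123 and 0.338 TPM in mock replicates 1 to 5. Lrg1, which encodes a glycoprotein that activated endothelium and liver secrete, had 23.2, 8.299, 9.58, 11.98 and 6.06 TPM in CAC, against 1.83, 1.47, 1.96, 1.69 and 1.85 TPM in mock. In both genes the lowest CAC library lay above the highest mock library, and CAC replicate 5 was the lowest of its group. Scgb3a1 rose with a log2 fold change of 2.33 ± 0.37 (SE, limma adjusted p = 0.000173) and Lrg1 with 2.08 ± 0.29 (adjusted p = 1.11e-05). Rtp1, a chaperone that brings olfactory receptors to the cell surface, had 5.39, 4.54, 4.85, 3.99 and 3.899 TPM in CAC, against 0.408, 0.307, 0.378, 1.44 and 0.281 TPM in mock (log2 fold change 1.86 ± 0.31 SE, adjusted p = 0.000395). In Rtp1 the groups did not overlap, and mock replicate 4 stood above the other mock libraries. The transmembrane protein gene Tmem252 (log2 fold change 1.44 ± 0.27 SE, adjusted p = 0.00126) and Grrp1, a glycine and arginine rich protein gene (log2 fold change 1.17 ± 0.17 SE, adjusted p = 4.48e-05), also rose without overlap between the groups. Because 1 TPM is added before taking logs, the folds of such low genes are understated. Both are protein-coding in GENCODE vM21 (GRCm38), where Scgb3a1 is on chromosome 11 from 49663610 to 49665118 and Lrg1 spans bases 56119678 to 56122001 of chromosome 17.

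**Figure D1:**
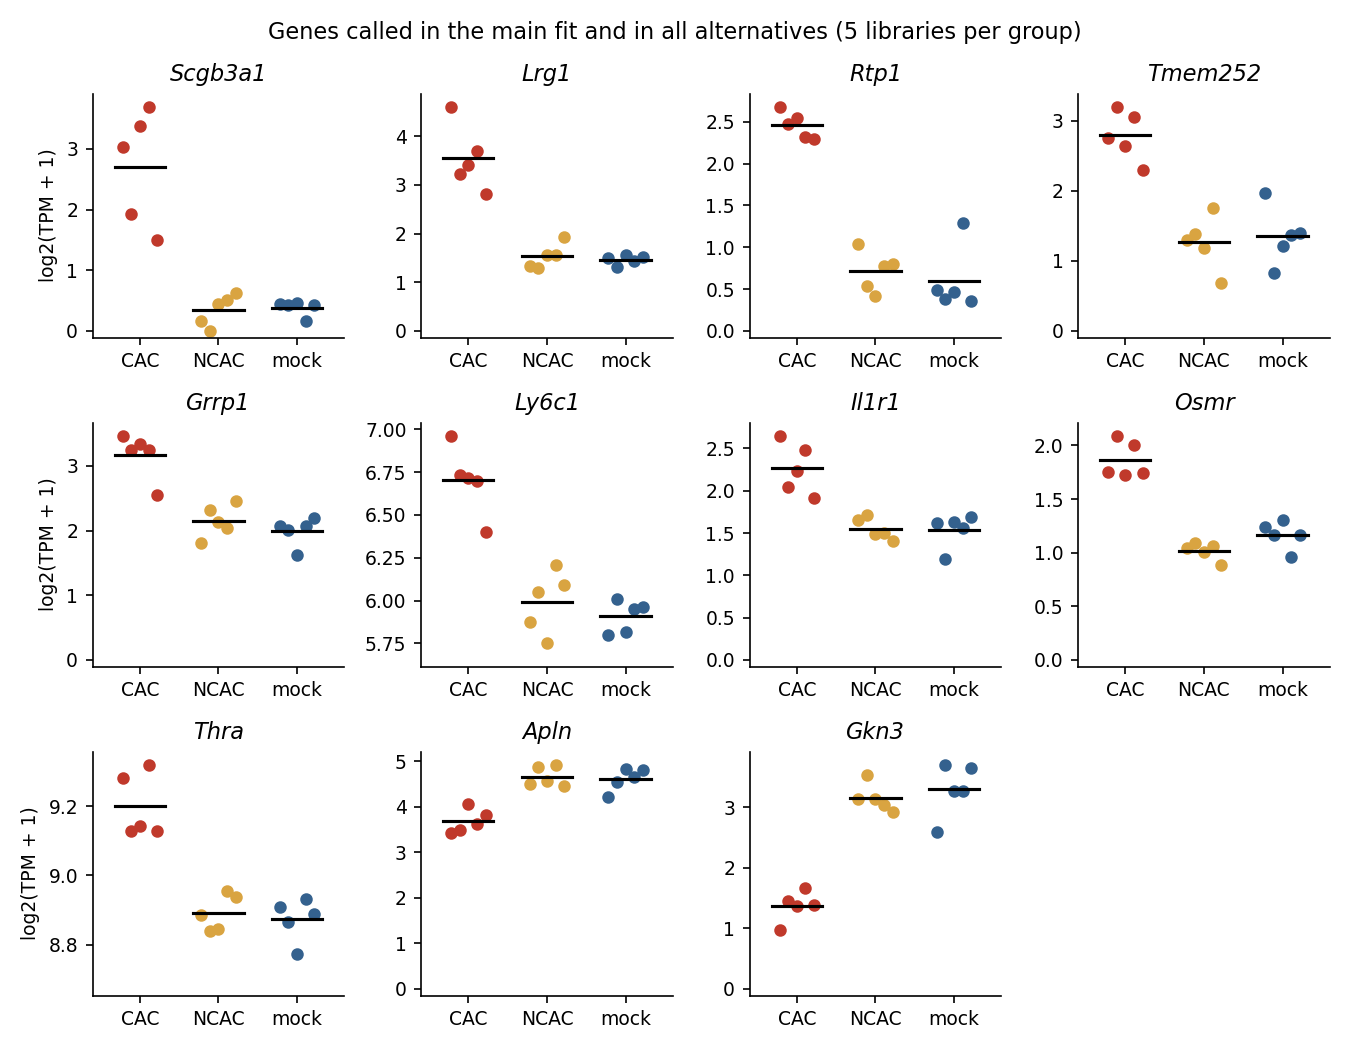
Level on the log2(TPM + 1) scale in each CAC, NCAC and mock library at 6 weeks for 11 named genes that passed in the fit reported here and in every alternative. Points are libraries and lines are group means, and the axes of Ly6c1 and Thra begin above 0. The CAC libraries stand above both other groups in 9 of the 11 genes and below them in Apln and Gkn3.

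Only 12 of the 73 named genes that passed were called under every alternative run. Those described here were Scgb3a1, Lrg1, Rtp1, Tmem252, Grrp1, Ly6c1, Il1r1, Osmr and Thra on the higher side and Apln and Gkn3 on the lower side. In these 11 genes all CAC libraries were apart from all mock libraries, as the plot of the 11 genes by library shows. The 11 were picked for passing in every alternative, so this separation is no added support. Among all tested genes 2.59% lay fully above mock and 1.04% fully below. None of the 73 reversed its direction under any alternative. The remaining 61 lost their call in at least 1 setting, 42 of them without CAC replicate 1.

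Promoters of the genes that rose were searched for 3 short motifs. RefSeq promoter windows (GRCm38.p6, 250 bases before to 50 after the start) were matched by symbol for 36 of the 49 named genes that rose. The letters TTCNNNGAA, the core that STAT factors bind, were in 7 of the 36 windows (19.4%) on either strand, against 9.55% of all 27025 genes with a window. ACANNNTGT, the core of the glucocorticoid response element, was in 6 (16.7%) against 7.9%, and TTGCNNAA, a C/EBP core, in 6 (16.7%) against 12.2%. No match in the named genes overlapped a match of another motif. Over all 128 higher called genes with a window the shares were 14.1%, 7.81% and 13.3%. In the 44 lower called genes with a window they were 0%, 0% and 13.6%. Over the 11114 tested genes with one they were 8.41%, 5.23% and 10%. The 4 stretches that follow are shown because they hold these letters upstream of genes described here. Each is written from 5′ to 3′ on the strand of its gene, with the matching letters in capitals.
Scgb3a1, plus strand, chr11:49663371-49663439: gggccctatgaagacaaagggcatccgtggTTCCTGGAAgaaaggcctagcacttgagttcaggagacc
Socs3, minus strand, chr11:117969482-117969550: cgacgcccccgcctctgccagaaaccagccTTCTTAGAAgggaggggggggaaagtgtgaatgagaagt
Lcn2, minus strand, chr2:32387853-32387985: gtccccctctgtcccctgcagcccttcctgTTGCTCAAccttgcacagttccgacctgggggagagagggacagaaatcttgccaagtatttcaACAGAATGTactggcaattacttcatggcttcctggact
Map3k6, plus strand, chr4:133240609-133240677: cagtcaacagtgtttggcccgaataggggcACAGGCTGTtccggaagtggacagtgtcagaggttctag
The capitals mark the STAT letters in Scgb3a1 and Socs3, the C/EBP letters followed by the glucocorticoid core in Lcn2, and the glucocorticoid core in Map3k6. A match describes letters and is not a binding site.

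Genes of the cytokine response rose as a small set of receptors, intracellular regulators and secreted products. Among receptors, Il1r1, the signalling receptor of interleukin 1, had 5.27, 3.11, 3.71, 4.59 and 2.78 TPM in CAC, against 2.08, 1.28, 2.09, 1.94 and 2.22 TPM in mock (log2 fold change 0.73 ± 0.14 SE, adjusted p = 0.00134). Osmr, the receptor of oncostatin M that pairs with gp130, had 2.38, 3.25, 2.31, 3.01 and 2.36 TPM in CAC, against 1.36, 1.24, 1.48, 0.944 and 1.25 TPM in mock (log2 fold change 0.70 ± 0.12 SE, adjusted p = 0.000567). Both receptors were low in level and separated the groups fully. Tnfrsf1a, the main receptor of tumour necrosis factor, rose less, to 15.7 ± 2.81 TPM in CAC, against 11.9 ± 1.09 TPM in mock (SD, n = 5 each, log2 fold change 0.36 ± 0.09 SE, adjusted p = 0.0213). Among regulators, Socs3, the feedback inhibitor that STAT3 induces, had 5.75, 5.39, 4.32, 6.82 and 3.76 TPM in CAC, against 2.82, 2.15, 2.85, 3.11 and 2.71 TPM in mock (log2 fold change 0.72 ± 0.14 SE, adjusted p = 0.00319). The NF-kB cofactor Bcl3 averaged 1.41 ± 0.501 TPM in CAC and 0.426 ± 0.163 TPM in mock (SD, n = 5 each, log2 fold change 0.74 ± 0.14 SE, adjusted p = 0.00257), and Cebpd, a transcription factor of acute inflammation, 9.71 ± 3.27 TPM in CAC and 3.75 ± 0.701 TPM in mock (log2 fold change 1.13 ± 0.28 SE, adjusted p = 0.0201). Among secreted products, Lcn2, the iron-siderophore binding protein lipocalin 2, had 3.49, 3.302, 2.21, 1.15 and 1.19 TPM in CAC, against 0.513, 0.339, 0.253, 0.394 and 0.206 TPM in mock (log2 fold change 1.22 ± 0.22 SE, adjusted p = 0.00124). Replicates 1 and 2 of CAC were the highest for Lcn2, and its lowest CAC library still stood above all mock libraries. Cp, the copper ferroxidase ceruloplasmin, averaged 8.49 ± 1.35 TPM in CAC and 5.47 ± 0.491 TPM in mock (log2 fold change 0.54 ± 0.13 SE, adjusted p = 0.0208).

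All gene lists used here were written with earlier results of these data known, so their shares and medians are descriptions and no added support. By list, 3 of 8 tested acute phase and secreted inflammatory genes rose (16 listed), against 1.18% of all tested genes. All 8 had a fold above 0, with a median log2 fold change of 0.54, against 0.03 over all tested genes. A filter on the mean over all libraries kept 6 of the 8, the others being tested through a group that reached 1 TPM. Among the interleukin 1 receptor, NF-kB and C/EBP genes, 3 of 19 rose (median 0.16), and in the list of interleukin 6 family receptors and STAT3 genes 3 of 20 (median 0.09). None of the tested members of these lists fell. The filter on the mean over all libraries kept 17 of the 19 and 18 of the 20. The cytokine genes Il6, Lif, Osm and Clcf1 of the last list were too low to be tested. Leaving out 1 library at a time, the threshold was missed by Tnfrsf1a without CAC library 1 or 2 or mock library 3 or 4, by Cebpd without CAC library 1 or 2 or mock library 3 and by Cp without CAC library 1 or mock library 2 or 4 (adjusted p 0.057 to 0.152). Among the other settings, calls were lost with TMM scaling for Tnfrsf1a, with mitochondrially encoded genes removed for Tnfrsf1a and with only the 2 groups in the fit for Tnfrsf1a (adjusted p 0.0543 to 0.158). Removal of the 3 libraries that stood apart ended the calls of all of Tnfrsf1a, Socs3, Bcl3, Cebpd, Lcn2 and Cp (adjusted p 0.12 to 0.306). Bcl3 was not tested with the filter on the mean over all libraries and entered only through a group reaching 1 TPM. Without the 3 libraries that stood apart 1 member was called in each of the 3 lists, at medians of 0.41, 0.09 and 0.18.

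Vascular genes moved in both directions. Vwf, the platelet-binding von Willebrand factor that endothelium stores and releases, had 11.8, 8.296, 9.13, 12.6 and 7.05 TPM in CAC, against 4.08, 3.76, 5.396, 4.29 and 4.43 TPM in mock (log2 fold change 0.98 ± 0.18 SE, adjusted p = 0.00134). Ly6c1, a surface protein of brain endothelium, had 124, 106, 104, 103 and 83.6 TPM in CAC, against 54.7, 63.5, 55.3, 60.8 and 61.3 TPM in mock (log2 fold change 0.80 ± 0.11 SE, adjusted p = 1.11e-05). Reads of Ly6c1 can be shared with its near-identical neighbour Ly6c2, which averaged 8.03 ± 0.666 TPM in CAC and 5.14 ± 0.469 TPM in mock (adjusted p = 0.0556). Ch25h, which makes the oxysterol 25-hydroxycholesterol, had 6.74, 4.67, 2.28, 5.28 and 1.45 TPM in CAC, against 0.997, 1.01, 0.218, 1.202 and 0.85 TPM in mock (log2 fold change 1.36 ± 0.23 SE, adjusted p = 0.000423). Its CAC libraries spread widely, and the lowest, replicate 5, was close to the highest mock library. Mgp, the matrix Gla protein of arterial walls, averaged 83.5 ± 25.4 TPM in CAC and 45.4 ± 6.51 TPM in mock (SD, n = 5 each, log2 fold change 0.83 ± 0.20 SE, adjusted p = 0.0182). On the lower side, Gkn3, a secreted gastrokine that marks arterial endothelium in the brain, had 0.959, 1.73, 1.58, 2.19 and 1.61 TPM in CAC, against 5.05, 11.995, 8.603, 8.62 and 11.6 TPM in mock. Gkn3 fell by 1.93 on the log2 scale (SE 0.33, adjusted p = 0.000427), and no CAC library reached the lowest mock library. Alpl, the tissue alkaline phosphatase of the blood-brain barrier, had 3.44, 2.95, 3.41, 3.25 and 4.49 TPM in CAC, against 6.74, 6.53, 6.43, 7.43 and 7.43 TPM in mock, and fell by 0.82 on the log2 scale (SE 0.16, adjusted p = 0.00281). Kdr, the main receptor of vascular endothelial growth factor, fell by 0.68 on the log2 scale (SE 0.14, adjusted p = 0.00551). Its ligand gene Vegfa averaged 27.7 ± 3.85 TPM in CAC and 42.8 ± 8.41 TPM in mock and fell by 0.60 on the log2 scale (SE 0.13, adjusted p = 0.00712). Apln, the apelin peptide gene of sprouting endothelium, had 9.71, 10.2, 15.7, 11.4 and 13.2 TPM in CAC, against 17.5, 22.4, 27.5, 24.3 and 27.2 TPM in mock, and fell by 0.93 on the log2 scale (SE 0.17, adjusted p = 0.00123).

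Most barrier and mural genes did not pass. Among all tested genes the shares called were 1.18% higher and 0.404% lower. In the list of endothelial and barrier genes 2 of 27 rose and 1 fell (median 0.06), in the arterial list 1 of 15 rose and 2 fell (median -0.07), in the leukocyte adhesion and endothelial activation list 4 of 13 rose (median 0.12), and in the angiogenic list 3 of 15 fell (median -0.02). A filter on the mean over all libraries kept 12 of the 13 activation genes and 15 of the 16 pericyte and smooth muscle genes. Of the activation list, Vcam1 and Icam1, the classical adhesion molecules, had folds of -0.11 and 0.62 (adjusted p = 0.747 and 0.143). CAC replicate 2 was the highest library for both. For pericytes and smooth muscle limma called 0 of 16, with 4 members lower at an unadjusted p under 0.05, while 15 of the 16 had folds below 0, at a median of -0.15 (TMM scaling -0.18). Cldn5, Pecam1 and Cdh5, which define endothelium, had folds of 0.13, 0.06 and -0.13 (adjusted p = 0.818, 0.785 and 0.598). Chosen after their values were seen, further endothelial genes that passed were Podxl, Slc38a5, Tgm2 and Fas on the higher side (log2 fold changes 0.74, 0.91, 0.96 and 0.98) and Unc5b, Ptprb and Cav1 on the lower side (-0.52, -0.36 and -0.31). With single libraries left out, the call was lost by Mgp without CAC library 1 or 4 or mock library 1 or 3, by Vegfa without CAC library 1 or mock library 3, by Unc5b without CAC library 1, 2, 4 or 5 or mock library 2, 3, 4 or 5, by Ptprb without CAC library 1, 2, 3 or 5 or mock library 1, 3, 4 or 5 and by Cav1 without CAC library 1, 2 or 4 or mock library 2, 4 or 5 (adjusted p 0.0504 to 0.238). The summed level of the meningeal and fibroblast list was 1582 to 2866 TPM in CAC and 1019 to 1486 TPM in mock, and its part in the vascular results was not tested. By setting, further calls were lost with no filter on level for Unc5b and Ptprb and with a replicate block for Ptprb. With only the 2 groups in the fit they were lost for Ch25h, Mgp, Vegfa, Podxl, Unc5b and Ptprb (adjusted p 0.0566 to 0.143 over these settings). Removing the 3 libraries that stood apart ended the calls of Vwf, Ch25h, Mgp, Alpl, Kdr, Vegfa, Fas, Unc5b, Ptprb and Cav1 (adjusted p 0.0707 to 0.335).

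Glucocorticoid-responsive genes were mostly higher in CAC. The share of all tested genes called higher was 1.18%. Of 19 tested members 6 rose (20 listed), none fell and 18 had folds above 0, with a median of 0.62, against 0.03 over all tested genes. This list was written with earlier results of these data known, so its share and median describe it and are no added support. Fkbp5, an immunophilin that acts on the glucocorticoid receptor through Hsp90, had 62.9, 33.4, 29.7, 40.8 and 39.3 TPM in CAC, against 14.9, 18.5, 20.5, 17.3 and 19.3 TPM in mock (log2 fold change 1.10 ± 0.25 SE, adjusted p = 0.00937). Sult1a1, a phenol sulfotransferase, had 64.9, 40.2, 35.04, 37.7 and 33.3 TPM in CAC, against 15.2, 14.4, 12.5, 16.9 and 12.3 TPM in mock (log2 fold change 1.47 ± 0.35 SE, adjusted p = 0.0143). For both genes CAC replicate 1 was the highest library, and the other 4 CAC libraries also lay above all mock libraries. The kinase gene Map3k6 averaged 5.11 ± 2.103 TPM in CAC and 1.295 ± 0.233 TPM in mock (SD, n = 5 each, log2 fold change 1.35 ± 0.30 SE, adjusted p = 0.00774). Arrdc2, an arrestin domain protein gene, averaged 17.7 ± 6.13 TPM in CAC and 8.53 ± 0.59 TPM in mock (log2 fold change 0.92 ± 0.20 SE, adjusted p = 0.00736). The metal-binding metallothioneins, which glucocorticoids, zinc and inflammation all induce, include 2 that rose. Mt1 had 1411, 1349, 1003, 1060.4 and 933 TPM in CAC, against 657, 782, 687, 742 and 789.8 TPM in mock (log2 fold change 0.64 ± 0.13 SE, adjusted p = 0.00396), and Mt2 averaged 561 ± 119.6 TPM in CAC and 359.6 ± 44.5 TPM in mock (log2 fold change 0.62 ± 0.15 SE, adjusted p = 0.0182). Plin4, a lipid droplet coat gene of the same list, had 38.4, 15.9, 14.4, 22.7 and 21.9 TPM in CAC, against 2.56, 5.02, 5.61, 6.19 and 3.001 TPM in mock. Its groups did not overlap, its log2 fold change was 2.08 ± 0.65 and its adjusted p 0.0865. Classical members that did not pass were Sgk1, Tsc22d3 and Per1, at folds of 0.87, 0.38 and 0.18 (adjusted p = 0.0686, 0.469 and 0.803), and Dusp1 was at -0.20.

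CAC replicate 1 had the highest level in 5 of the 6 called glucocorticoid genes. Without it, 1 member was called, 10 members had an unadjusted p under 0.05 and the median was 0.56, while Fkbp5, Sult1a1, Map3k6, Arrdc2 and Mt2 had adjusted p of 0.0748 to 0.1. When any 1 library was dropped, the calls lost were those made by Fkbp5 without CAC library 1, by Sult1a1 without CAC library 1, by Map3k6 without CAC library 1, by Arrdc2 without CAC library 1 and by Mt2 without CAC library 1 or 2 or mock library 1 or 3 (adjusted p 0.0542 to 0.1). Without the 3 libraries that stood apart limma called 0 members, with 10 at an unadjusted p under 0.05 and a median of 0.41. The hypothalamus and pituitary genes of CAC replicate 1 are given above, and their part in these values was not tested. With only the 2 groups in the limma fit 9 of the 19 members were called, all higher, and 17 had an unadjusted p under 0.05. Mt2 lost its call in that fit (adjusted p 0.0567). Fits without the 3 libraries that stood apart called none of Fkbp5, Sult1a1, Map3k6, Arrdc2, Mt1 and Mt2 (adjusted p 0.177 to 0.388). The list of corticosteroid receptors, their chaperones and coactivators, and enzymes and transporters of local steroid control had 0 calls among 14 members in limma and 2 at an unadjusted p under 0.05. Akr1c14, a steroid dehydrogenase of that list, had 0.713, 1.04, 0.961, 1.09 and 1.12 TPM in CAC, against 1.596, 3.87, 2.75, 2.56 and 1.72 TPM in mock. The groups did not overlap, and its adjusted p was 0.0501 (-0.78 log2 fold change, SE 0.22). It passed as lower in 7 of 19 alternatives, among them the fit of only the 2 groups and that with mitochondrially encoded genes removed. Nr3c1, the glucocorticoid receptor, averaged 46.95 ± 6.02 TPM over the CAC libraries and 50.4 ± 5.03 TPM over the mock libraries (SD, n = 5 each, adjusted p = 0.622).

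**Figure D2:**
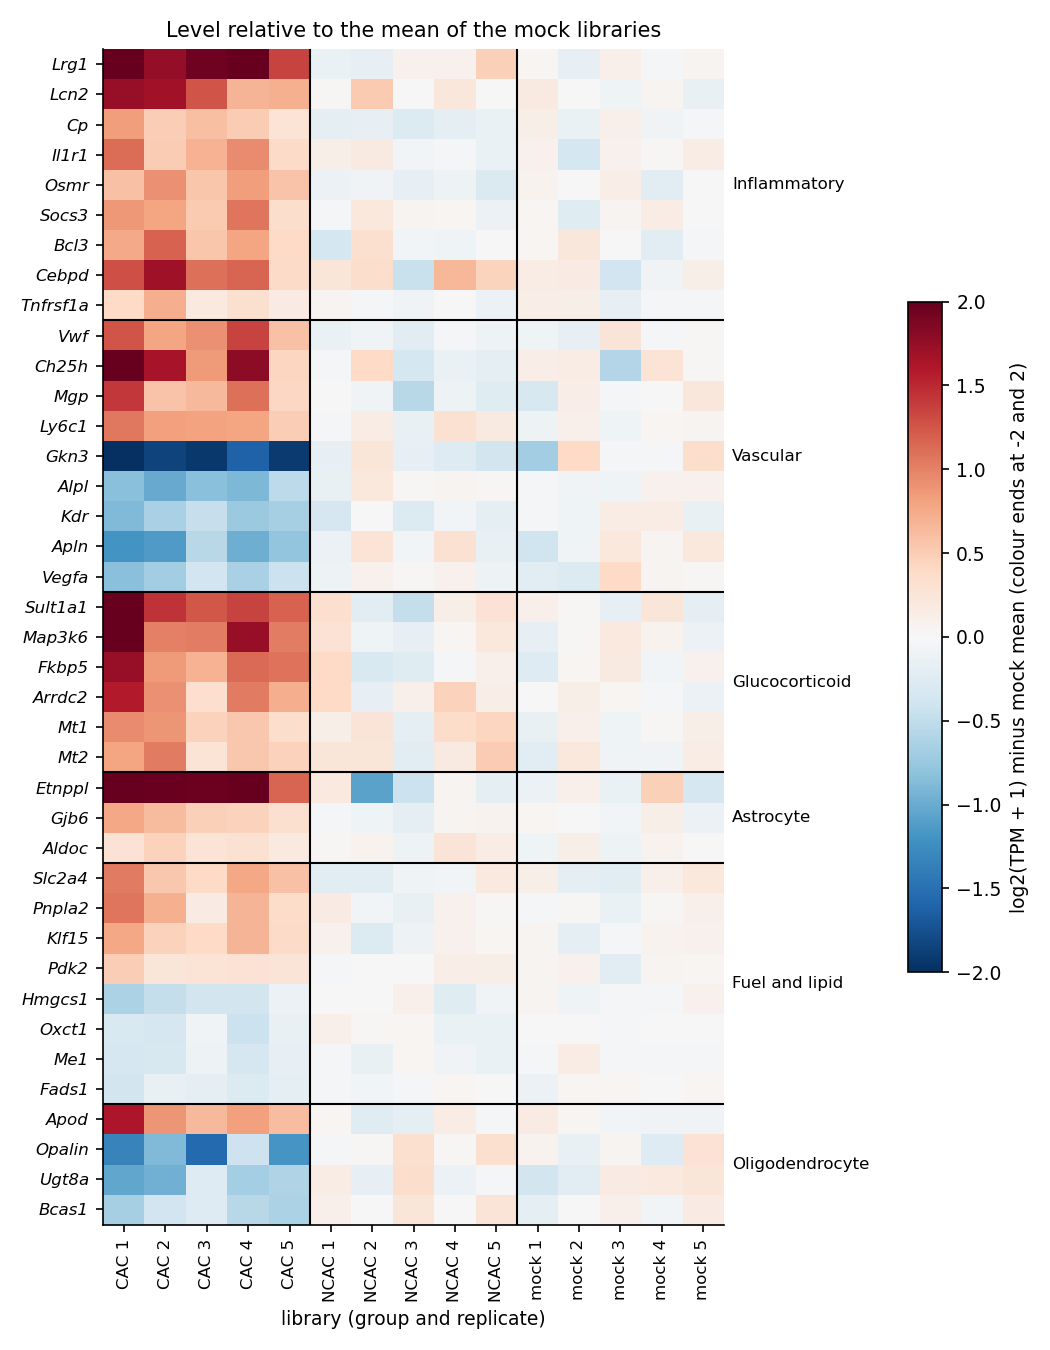
Level of 39 called genes in each library at 6 weeks, as the difference of log2(TPM + 1) from the mean of the mock libraries, with CAC, NCAC and mock libraries from left to right and genes grouped by role. Colours end at -2 and 2. CAC replicate 1 has the highest level in 5 of the 6 glucocorticoid genes shown.

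Astrocyte genes changed in a few members. Of all tested genes 1.18% were called higher and 0.404% lower. Etnppl, the astrocyte enzyme that breaks down phosphoethanolamine, had 22.7, 15.6, 15.5, 17.3 and 8.54 TPM in CAC, against 2.91, 3.55, 2.88, 4.899 and 2.34 TPM in mock (log2 fold change 1.94 ± 0.41 SE, adjusted p = 0.00551). Every CAC library was above every mock library, and CAC replicate 5 was the lowest of its group. Gjb6, the gap junction protein connexin 30, averaged 104 ± 12.9 TPM in CAC and 71.03 ± 4.33 TPM in mock (SD, n = 5 each, log2 fold change 0.54 ± 0.15 SE, adjusted p = 0.0409), and Aldoc, the aldolase of astrocytes, 827 ± 58.1 TPM in CAC and 669 ± 42.9 TPM in mock (log2 fold change 0.31 ± 0.07 SE, adjusted p = 0.0111). In the list of astrocyte channels and transporters these 3 of 19 rose and the median was -0.02, while 4 members were lower at an unadjusted p under 0.05. The lowest was Aqp4, the water channel of astrocyte endfeet, chosen after its values were seen. It had 41.9, 55.5, 52.4, 47.7 and 54.7 TPM in CAC, against 65.4, 71.9, 73.99, 59.96 and 73.1 TPM in mock. Its groups did not overlap, and the difference of -0.45 (log2, SE 0.13) had an adjusted p of 0.0704. With TMM scaling 1 member of this list was called. With only the 2 groups in the fit 3 were called higher and 1 lower. With the 3 libraries that stood apart removed limma called 0, with 6 at an unadjusted p under 0.05. Of the reactive astrocyte genes 3 of 15 rose, namely Lcn2, Osmr and Cp, and 1 fell, with a median of 0.20. A filter on the mean over all libraries kept 13 of these 15. The member that fell was Nes, the intermediate filament nestin, with 3.18, 3.798, 4.49, 3.83 and 5.32 TPM in CAC, against 6.14, 7.58, 8.45, 7.51 and 5.66 TPM in mock (log2 fold change -0.66, SE 0.14, adjusted p = 0.00507). Gfap and Vim, the filament genes most used to mark reactive astrocytes, had folds of 0.35 and 0.07 (adjusted p = 0.492 and 0.918). Leaving out 1 library at a time, the threshold was missed by Gjb6 without CAC library 1, 2 or 4 or mock library 1, 2, 3, 4 or 5 and by Aldoc without CAC library 2 or mock library 3 (adjusted p 0.0512 to 0.208). Among the other settings, Gjb6 lost its call with no filter on level and with a replicate block. Both Gjb6 and Aldoc lost it with TMM scaling and with mitochondrially encoded genes removed (adjusted p 0.0534 to 0.0758 over these settings). Removal of the 3 libraries that stood apart ended the calls of all of Etnppl, Gjb6, Aldoc and Nes (adjusted p 0.155 to 0.33).

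Of the oligodendrocyte genes described here that passed, 3 fell and 1 rose. Called genes made up 1.18% (higher) and 0.404% (lower) of all tested genes. In bulk tissue fewer cells of a type and less RNA per cell cannot be told apart. Opalin, a membrane protein of myelin-forming oligodendrocytes, had 9.08, 12.9, 7.65, 18.04 and 10.3 TPM in CAC, against 25.8, 22.1, 25.4, 20.4 and 30.03 TPM in mock, and fell by 1.08 on the log2 scale (SE 0.22, adjusted p = 0.00507). Ugt8a, the enzyme that makes the myelin lipid galactocerebroside, had 16.5, 17.6, 28.97, 21.5 and 22.8 TPM in CAC, against 26.9, 29.6, 39.4, 40.01 and 41.3 TPM in mock, and fell by 0.70 on the log2 scale (SE 0.19, adjusted p = 0.0354). The Ugt8a groups overlapped in CAC replicate 3. Bcas1, a marker of newly forming oligodendrocytes, averaged 72.1 ± 8.91 TPM in CAC and 102 ± 9.79 TPM in mock and fell by 0.50 on the log2 scale (SE 0.12, adjusted p = 0.0188). Apod, the lipid carrier apolipoprotein D, went the other way, with 449, 271, 231, 259.9 and 224 TPM in CAC, against 164, 150.4, 141, 139 and 139 TPM in mock (log2 fold change 0.92 ± 0.19 SE, adjusted p = 0.00412). Of 20 mature oligodendrocyte and myelin genes 2 fell and 1 rose, with a median of -0.27, and the abundant myelin genes Mbp and Mog had folds of -0.09 and -0.32 (adjusted p = 0.782 and 0.206). Of 18 oligodendrocyte precursor markers 1 fell, all 18 had folds below 0 and the median was -0.15 (TMM scaling -0.18). Pdgfra and Cspg4, which define precursors, had folds of -0.14 and -0.09 (adjusted p = 0.447 and 0.712). With single libraries left out, the call was lost by Ugt8a without CAC library 1, 2 or 4 or mock library 3, 4 or 5, by Bcas1 without CAC library 1 or 4 or mock library 3 or 5 and by Apod without CAC library 1 (adjusted p 0.0506 to 0.191). By setting, further calls were lost with no filter on level for Ugt8a and with only the 2 groups in the fit for Ugt8a (adjusted p 0.0557 to 0.068). Removing the 3 libraries that stood apart ended the calls of all of Opalin, Ugt8a, Bcas1 and Apod (adjusted p 0.116 to 0.289). Without these libraries the median of the mature list was -0.23 and that of the precursor list -0.16.

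Several genes of fuel use changed in small steps, with glucose, lipase and fasting genes among those higher and lipid synthesis genes among those lower in CAC. Slc2a4, the insulin-regulated glucose transporter, had 4.52, 2.91, 2.53, 3.599 and 3.04 TPM in CAC, against 1.91, 1.34, 1.29, 1.87 and 2.11 TPM in mock (log2 fold change 0.67 ± 0.18 SE, adjusted p = 0.0339). Pdk2, a kinase that holds back pyruvate oxidation, averaged 113 ± 8.57 TPM in CAC and 90.9 ± 7.89 TPM in mock (SD, n = 5 each, log2 fold change 0.31 ± 0.07 SE, adjusted p = 0.0054). The lipases Pnpla2 and Lipe, which act in turn on stored triglyceride, had log2 fold changes of 0.60 ± 0.16 and 0.27 ± 0.06 (adjusted p = 0.039 and 0.00967). Klf15, a fasting and glucocorticoid-induced transcription factor, averaged 33.7 ± 4.46 TPM in CAC and 22.8 ± 1.71 TPM in mock (log2 fold change 0.54 ± 0.14 SE, adjusted p = 0.0275). All 5 CAC libraries were above all mock libraries in each of these 5 genes. The same held in 130 of the 179 genes called higher and in 2.59% of all tested genes. Hmgcs1, an early enzyme of cholesterol synthesis, had 157, 176, 189.5, 189.8 and 227 TPM in CAC, against 254, 232, 239, 242 and 259.6 TPM in mock, and fell by 0.39 on the log2 scale (SE 0.09, adjusted p = 0.00863). Fads1, a fatty acid desaturase, Me1, the malic enzyme that supplies NADPH, and Oxct1, which activates ketone bodies for oxidation, fell by 0.23, 0.25 and 0.26 (adjusted p = 0.016, 0.0157 and 0.0071). Calls over all tested genes were 1.18% higher and 0.404% lower. By list, 1 of 23 cholesterol synthesis genes fell and 18 had folds below 0 (median -0.15). TMM scaling called 4 of them lower. The limma fit of only the 2 groups called 0, with 9 at an unadjusted p under 0.05. In the list of fatty acid synthesis 2 of 17 fell (median -0.08), in that of fatty acid oxidation and ketones 1 of 25 fell (median 0.04), and in those of lipolysis, glucose use and fasting response 2 of 17, 3 of 27 and 3 of 20 rose (medians 0.06, 0.05 and 0.10). With the 3 libraries that stood apart removed limma called 0 members of each of these 6 lists, with 5, 5, 5, 5, 4 and 6 at an unadjusted p under 0.05 in the order given. The cholesterol median was then -0.05. When any 1 library was dropped, the calls lost were those made by Slc2a4 without CAC library 1 or 4 or mock library 2, 3 or 4, by Pdk2 without CAC library 1, by Pnpla2 without CAC library 1, 2 or 4 or mock library 1, 2, 3, 4 or 5, by Lipe without CAC library 1 or mock library 3, by Klf15 without CAC library 1 or 4 or mock library 2 or 3, by Hmgcs1 without CAC library 1, by Fads1 without CAC library 1 or mock library 3, by Me1 without CAC library 1 or 4 or mock library 2 and by Oxct1 without CAC library 4 (adjusted p 0.0504 to 0.266). Calls also failed with no filter on level for Slc2a4 and Pnpla2. Pnpla2 further lost its call with TMM scaling, with mitochondrially encoded genes removed and with a replicate block. With only the 2 groups in the fit Pdk2, Pnpla2, Lipe, Hmgcs1, Fads1, Me1 and Oxct1 failed (adjusted p 0.05003 to 0.144 over these settings). Fits without the 3 libraries that stood apart called none of Slc2a4, Pdk2, Pnpla2, Lipe, Klf15, Hmgcs1, Fads1, Me1 and Oxct1 (adjusted p 0.122 to 0.392).

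For genes of immune cells the calls are given beside the share of all tested genes that passed, 1.59%. Short lists would hold few or no calls at that share, so low counts do not set these genes apart. Fcrls, an Fc receptor-like gene of microglia, had 1.05, 1.47, 3.42, 2.404 and 2.67 TPM in CAC, against 2.79, 3.96, 5.52, 7.903 and 8.67 TPM in mock, and fell by 1.05 on the log2 scale (SE 0.26, adjusted p = 0.0208). It was the 1 of 18 microglia markers that passed, the groups overlapped, and the list median was -0.10, or -0.21 without the 3 libraries that stood apart. P2ry12, Cx3cr1 and Tmem119, which define resting microglia, had folds of -0.34, -0.13 and -0.03 (adjusted p = 0.121, 0.682 and 0.963). Ighm, the constant region of immunoglobulin M, had 19.3, 33.8, 24.7, 29.7 and 36.3 TPM in CAC, against 48.99, 57.02, 61.6, 48.3 and 57.2 TPM in mock, and fell by 0.93 on the log2 scale (SE 0.25, adjusted p = 0.0413). Its groups did not overlap. Leaving out 1 library at a time, the threshold was missed by Fcrls without CAC library 1 or 2 or mock library 3, 4 or 5 and by Ighm without CAC library 1, 3 or 4 or mock library 1, 2, 3, 4 or 5 (adjusted p 0.0525 to 0.237). Among the other settings, calls were lost with no filter on level for Ighm and with only the 2 groups in the fit for Fcrls (adjusted p 0.0692 to 0.116). Removal of the 3 libraries that stood apart ended the calls of Fcrls and Ighm (adjusted p 0.217 to 0.272). By limma 0 of 21 interferon-induced genes and 0 of 14 class I antigen presentation genes passed, with 1 and 1 at an unadjusted p under 0.05 and medians of -0.08 and 0.07.

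Calls in the neuronal lists are given beside the share over all tested genes, 1.59%. At that share lists this short would hold few or no calls, so their zeros do not set neuronal genes apart. By limma 0 of 18 excitatory neuron and layer markers, 0 of 15 inhibitory neuron markers, 0 of 19 synaptic release genes, 0 of 24 voltage-gated channel genes and 0 of 20 immediate early genes passed, with 1, 1, 2, 0 and 0 members at an unadjusted p under 0.05. Their medians were 0.05, 0.00, 0.01, -0.03 and 0.01. Of 26 glutamate and GABA receptor subunits 1 passed. This was Grm3, a metabotropic glutamate receptor also made by astrocytes, which fell by 0.45 on the log2 scale (SE 0.11, adjusted p = 0.0208). With single libraries left out, the call was lost by Grm3 without CAC library 1 or 2 or mock library 3 or 4 (adjusted p 0.0598 to 0.205). By setting, further calls were lost with only the 2 groups in the fit for Grm3 (adjusted p 0.117). Removing the 3 libraries that stood apart ended the calls of Grm3 (adjusted p 0.354). Fos and Arc, markers of recent neuronal activity, had folds of -0.11 and -0.47 (adjusted p = 0.969 and 0.841).

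**Figure D3:**
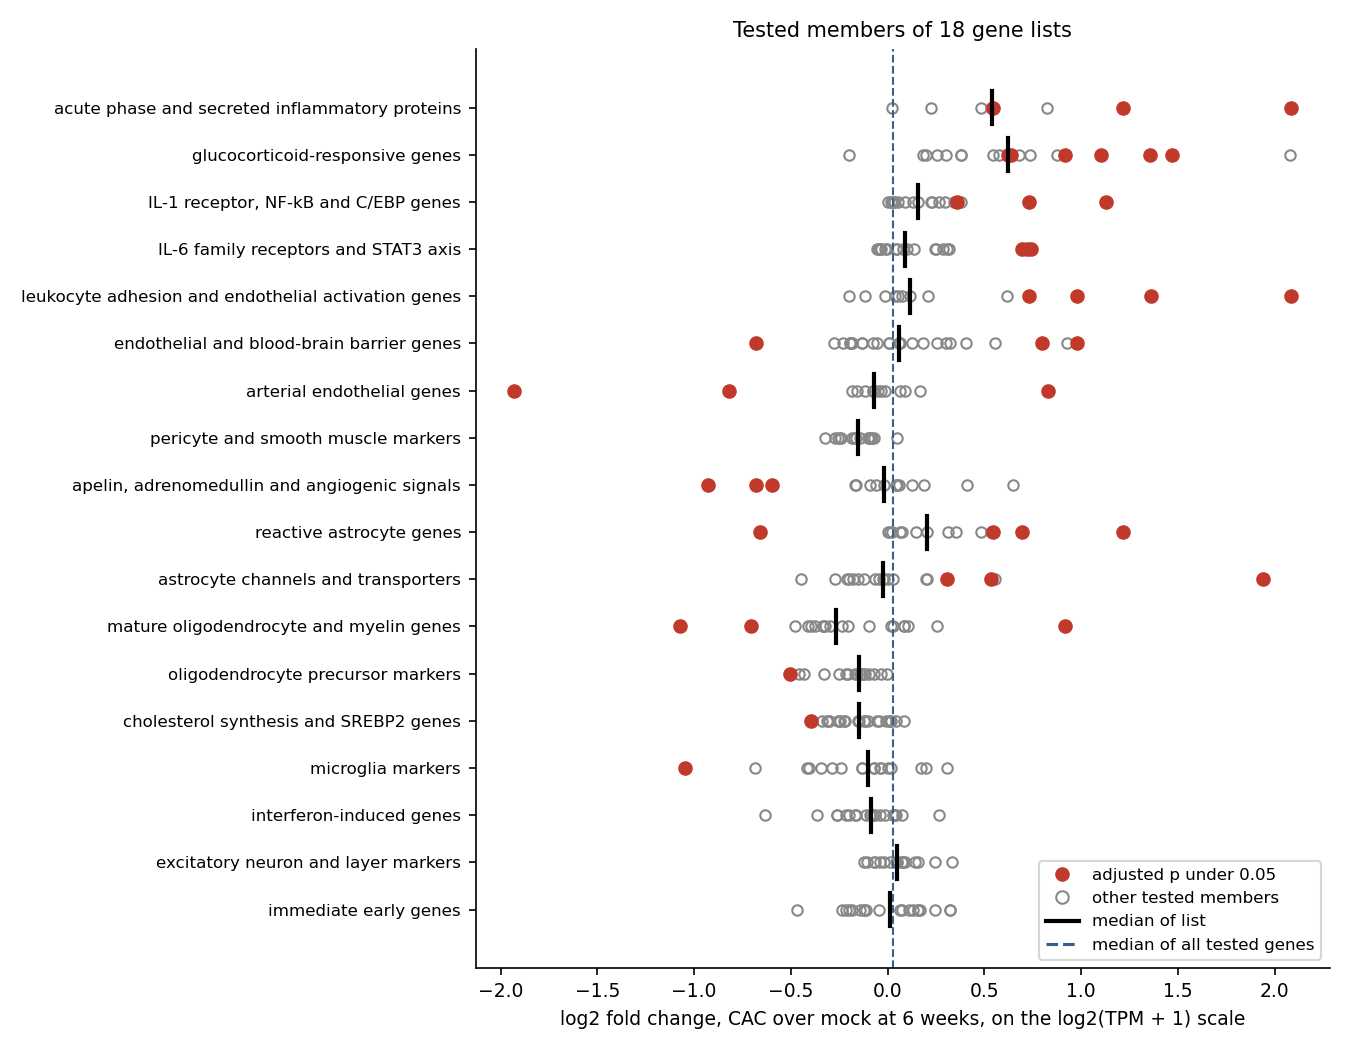
Log2 fold change of CAC over mock at 6 weeks for each tested member of 18 gene lists, on the log2(TPM + 1) scale. The lists were written with earlier results of these data known. Filled points passed an adjusted p of 0.05, black bars are list medians and the dashed line is the median of all tested genes. Among the 18 lists shown, acute phase and glucocorticoid genes have the highest medians, 0.54 and 0.62, and mature oligodendrocytes the lowest, -0.27. Of the lists not shown, those of immunoglobulin and B cell, choroid plexus, erythroid and olfactory genes have lower medians (-0.72, -0.49, -0.35 and -0.28).

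Among the remaining genes Thra, the thyroid hormone receptor alpha, had 622, 558, 565, 638 and 559 TPM in CAC, against 479, 466, 436, 487 and 473 TPM in mock (log2 fold change 0.33 ± 0.06 SE, adjusted p = 0.00111). Its 3′ end overlaps Nr1d1 on the opposite strand, which had 124, 111, 71.9, 132 and 109.7 TPM in CAC, against 145, 98.6, 103, 104 and 121 TPM in mock, and whether counting used strand is not given in the sources used here. Slc40a1, the iron exporter ferroportin, fell by 0.44 on the log2 scale (SE 0.11, adjusted p = 0.0271). Further genes among the 15 largest rises were Npcd (log2 fold change 1.55 ± 0.35 SE, adjusted p = 0.00934), whose gene model overlaps the genes Cbx6 and Nptxr on the same strand so that its reads are uncertain, and Phyhd1, a dioxygenase gene (log2 fold change 1.26 ± 0.23 SE, adjusted p = 0.00119). Hbq1a, a theta globin gene with a near-identical copy, rose to 4.902 ± 1.49 TPM in CAC, against 1.68 ± 1.15 TPM in mock (log2 fold change 1.22 ± 0.30 SE, adjusted p = 0.0208), and the Wnt ligand gene Wnt10b had a log2 fold change of 1.16 ± 0.26 (adjusted p = 0.00863). The summed erythroid list was 959 to 1834 TPM in CAC and 1175 to 2445 TPM in mock, and its part in the Hbq1a value was not tested. Among the 15 largest falls were Serpinb1a, an inhibitor of neutrophil proteases, Tnnc1, troponin C of slow muscle, Gpat2, a glycerol phosphate acyltransferase, and Pm20d1, a secreted peptidase. They fell by 0.76, 0.71, 0.91 and 0.64 (adjusted p = 0.00626, 0.0102, 0.0057 and 0.00967). Hist1h2be, a histone H2B gene of a family with near-identical copies, fell by 0.66 on the log2 scale (SE 0.16, adjusted p = 0.0218) and its reads are uncertain. When any 1 library was dropped, the calls lost were those made by Slc40a1 without CAC library 1 or mock library 1, 3 or 5, by Hbq1a without CAC library 1 or 4 or mock library 1 or 3, by Wnt10b without CAC library 4, by Serpinb1a without CAC library 1, by Tnnc1 without CAC library 1, by Pm20d1 without mock library 2 and by Hist1h2be without CAC library 1 or 4 or mock library 2, 3, 4 or 5 (adjusted p 0.0506 to 0.208). Calls also failed with a replicate block for Slc40a1 and with only the 2 groups in the fit for Slc40a1, Hbq1a, Gpat2 and Hist1h2be (adjusted p 0.0575 to 0.151). Fits without the 3 libraries that stood apart called none of Slc40a1, Npcd, Phyhd1, Hbq1a, Wnt10b, Serpinb1a, Tnnc1, Pm20d1 and Hist1h2be (adjusted p 0.0659 to 0.342).

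Genes of protein synthesis and respiration showed small shifts that depended on scaling. Among all tested genes 1.18% were called higher and 0.404% lower. Of 82 cytosolic ribosomal protein genes 7 rose and 81 had folds above 0, with a median of 0.12, but limma called 0 of them after TMM scaling, with 8 at an unadjusted p under 0.05 and a median of 0.09. Rps14 had the highest fold of those called, 0.30 ± 0.07 (adjusted p = 0.00712), and ribosomal protein genes share reads with many pseudogenes. In the list of nuclear encoded respiratory chain genes 2 of 73 rose (median 0.05), of which Ndufv1, a subunit of complex I, had 0.22 ± 0.05 (adjusted p = 0.00553). All 13 mitochondrially encoded genes had folds below 0 (median -0.15, TMM scaling -0.18), and 1 of them, mt-Nd2, fell by 0.27 (adjusted p = 0.0275). Leaving out 1 library at a time, the threshold was missed by Rps14 without CAC library 1 or mock library 3 and by mt-Nd2 without CAC library 1, 3 or 4 or mock library 2, 3 or 5 (adjusted p 0.0544 to 0.149). Among the other settings, calls were lost with no filter on level for mt-Nd2, with TMM scaling for Rps14 and mt-Nd2 and with only the 2 groups in the fit for Rps14 and mt-Nd2 (adjusted p 0.0706 to 0.153). Removal of the 3 libraries that stood apart ended the calls of all of Rps14, Ndufv1 and mt-Nd2 (adjusted p 0.079 to 0.304). The summed level of the mitochondrially encoded genes was 222741 to 277799 TPM in CAC and 257167 to 276488 TPM in mock.

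Mice with non-cachectic melanoma allow the same CAC libraries to be set against another group that carries a tumour. Against NCAC at 6 weeks limma called 1397 genes (9.24% of tested genes), 1163 higher in CAC (7.69%) and 234 lower (1.55%). TMM scaling gave 733 calls, 279 higher and 454 lower. Without CAC replicates 1, 2, 4 and 5 there were 353, 2492, 566 and 688 calls, and without NCAC replicates 1, 2, 4 and 5 there were 2223, 582, 588 and 507. Because CAC libraries enter both comparisons, values are set side by side and no overlap is read. Lrg1 averaged 11.8 ± 6.73 TPM in CAC, 1.93 ± 0.547 TPM in NCAC and 1.76 ± 0.189 TPM in mock (SD, n = 5 each). Scgb3a1 averaged 6.63 ± 4.297, 0.29 ± 0.226 and 0.306 ± 0.103 TPM in CAC, NCAC and mock, and Etnppl 15.9 ± 5.05, 2.63 ± 1.11 and 3.32 ± 0.982 TPM. Fkbp5 averaged 41.2 ± 12.9 TPM in CAC, 18.1 ± 3.88 TPM in NCAC and 18.1 ± 2.11 TPM in mock. On the lower side Gkn3 averaged 1.61 ± 0.439, 7.99 ± 1.51 and 9.17 ± 2.804 TPM in CAC, NCAC and mock, and Opalin 11.6 ± 4.09, 27.1 ± 3.44 and 24.7 ± 3.73 TPM. The 3 largest rises in CAC over NCAC were in Scgb3a1, Plin4 and Etnppl, with log2 fold changes of 2.36, 2.33 and 2.23 (adjusted p = 0.000151, 0.0214 and 0.000712). Of the 3 largest falls Gkn3 and Opalin were at -1.79 and -1.21 (adjusted p = 0.000712 and 0.000712), and the third, Gdf1, is listed at 0 in all CAC and mock libraries and in 3 of the 5 NCAC libraries, with 15.6 and 6.49 TPM in the other two. Hbq1a, Pm20d1 and Gpat2 passed against mock but not against NCAC, with log2 fold changes against NCAC of 0.36, -0.32 and -0.44 (adjusted p = 0.445, 0.14 and 0.125), and the difference between these 2 results was not tested.

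Between NCAC and mock at 6 weeks limma called 0 genes (0% of tested genes), with 991 (6.56%) at an unadjusted p under 0.05. There was 1 call without NCAC replicate 1, 2 or 3 and 1 with no filter on level. The genes with the lowest p were Gdf1 and Inafm1, and Inafm1 was at 47.5 ± 7.03 TPM in NCAC and 37.8 ± 3.63 TPM in mock (SD, n = 5 each, log2 fold change 0.32 ± 0.08 SE, adjusted p = 0.671). Lrg1, Lcn2 and Fkbp5 had log2 fold changes of 0.07, 0.15 and -0.02 in NCAC over mock.

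At 8 weeks the same contrast rests on 7 CAC and 5 mock libraries, also on lane 4. A difference in the CAC over mock fold between weeks 6 and 8 met the threshold in 0 genes in limma (0%) and 215 (1.42%) had an unadjusted p below 0.05, and no alternative gave a call. Lrg1 averaged 15.1 ± 6.16 TPM over the CAC and 2.28 ± 1.69 TPM over the mock libraries of 8 weeks (SD, n = 7 and 5), and its log2 fold was 0.21 ± 0.39 (SE) apart from that at 6 weeks. At that time Lcn2 averaged 5.24 ± 3.62 TPM with CAC and 0.501 ± 0.249 TPM with mock injection, with a difference of 0.70 ± 0.31 in log2 fold between the weeks. Gkn3 had means of 1.77 ± 1.68 TPM in CAC and 8.09 ± 1.64 TPM in mock, with a difference of 0.04 ± 0.45. Exoc3l4, an exocyst-like gene, and Rinl, a Ras and Rab interactor-like gene, had the lowest p apart from a Gm gene model, with differences of -0.67 and -0.50 (adjusted p = 1 and 1).

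**Figure D4:**
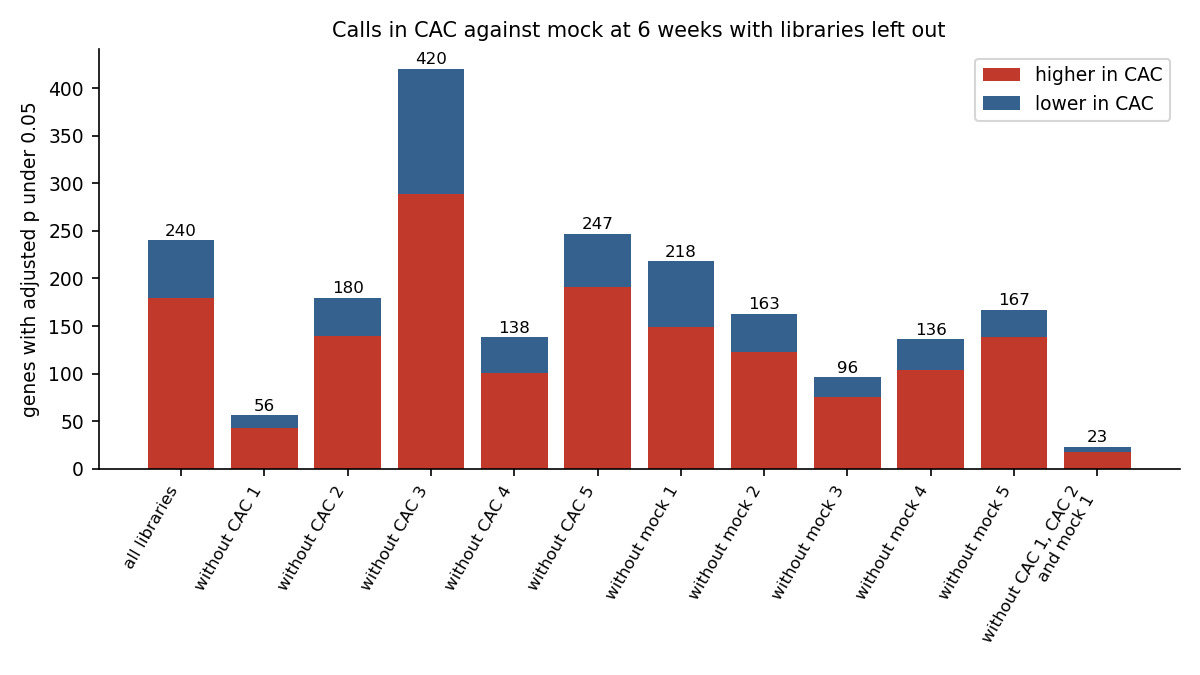
Number of genes with an adjusted p under 0.05 in CAC against mock at 6 weeks, split by direction, with all libraries and with the named libraries left out. The count is 240 with all libraries, 56 without CAC replicate 1, 420 without CAC replicate 3 and 23 with the 3 libraries that stood apart removed.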

How the data were processed

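RNA of mouse neocortex was sequenced from TruSeq stranded mRNA libraries, per the labels' protocols. The authors deposited 1 table of TPM values over 62 libraries and 47643 genes, made against mm10 per the submitters' processing notes, while the sources used here do not give the aligner, quantifier, annotation or use of strand. Columns were matched to samples by title. Differences were tested on log2(TPM + 1) with limma 3.58.1 in R 4.3.3 (a mean for each of 12 groups, 50 residual degrees of freedom, moderated variances with a trend) and adjusted by Benjamini-Hochberg over the 15115 genes whose group mean reached 1 TPM in at least 1 group. Calls have an adjusted p under 0.05. P-values measure the spread between the libraries labelled as biological replicates. Depth was estimated from the steps between low TPM values and GENCODE vM21 exon lengths, where 86.5% of 33851 low values came out as whole reads within 0.05, so no count test was run. No 2 libraries of week 6 were identical. Named genes were the 15 higher and 15 lower calls with the largest folds (without unnamed gene models and pseudogenes), up to 6 called members of each of 60 lists, the 2 lowest-p members of any list with fewer than 2 calls, and the 3 in each direction, or the 2 with the lowest p, in the other comparisons. Genes outside this rule are given as values of list members or said to be chosen after their values were seen. The comparison and the lists were chosen with earlier results of these data known. Alternatives were another pseudocount of 0.1 TPM, other filters, TMM scaling (trims of 30% and 5%), robust moderation, fewer groups, a replicate block and each library left out. Leaving out the 3 libraries that stood apart and removing mitochondrially encoded genes were added after seeing the data. The fit was tested on simulated data. Some genes are not reported here.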

Additional observations from a re-analysis of the deposited data

Results flagged for a closer look

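In a group of 5 libraries the gap of a value to the nearest other value was divided by the range of the group. Gap and range were taken on the log2(TPM + 1) scale, while levels are given in TPM. A value is listed here where this ratio was above Dixon's critical value of 0.71, which chance passes in about 1 in 20 groups. Of 200 pairs of a gene and a group, 21 (10.5%) did so. CAC replicate 1 was the highest of its group for Apod at 449 TPM (others 224 to 271 TPM), Pdk2 at 128 TPM (others 108 to 110.3 TPM) and Sult1a1 at 64.9 TPM (others 33.3 to 40.2 TPM). CAC replicate 2 was the highest of its group for Gfap at 317 TPM (others 129 to 164 TPM), Icam1 at 14.6 TPM (others 4.08 to 4.62 TPM), Tmem119 at 59.2 TPM (others 27.3 to 31.02 TPM) and Vcam1 at 22.5 TPM (others 14.4 to 16.1 TPM). CAC replicate 5 was the lowest of its group for Grrp1 at 4.88 TPM (others 8.46 to 10.03 TPM). Mock replicate 1 was the lowest of its group for Fads1 at 207 TPM (others 225 to 231 TPM), Hist1h2be at 1.25 TPM (others 2.41 to 2.72 TPM) and Tsc22d3 at 43.5 TPM (others 51.05 to 54.05 TPM). Mock replicate 2 was the highest of its group for Exoc3l4 at 2.37 TPM (others 1.38 to 1.44 TPM) and Me1 at 50.4 TPM (others 44.3 to 44.6 TPM). Mock replicate 2 was the lowest of its group for Arc at 84.5 TPM (others 227 to 314 TPM), Fos at 20.9 TPM (others 43.5 to 51.2 TPM) and Il1r1 at 1.28 TPM (others 1.94 to 2.22 TPM). Mock replicate 3 was the lowest of its group for Pdk2 at 76.9 TPM (others 93.5 to 96.3 TPM). Mock replicate 4 was the highest of its group for Cldn5 at 55.9 TPM (others 48.1 to 49.5 TPM) and Rtp1 at 1.44 TPM (others 0.281 to 0.408 TPM). Mock replicate 4 was the lowest of its group for Icam1 at 2.701 TPM (others 3.35 to 3.62 TPM) and Scgb3a1 at 0.123 TPM (others 0.338 to 0.369 TPM). No explanation of these values was tested.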

How the results depend on the processing

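Between CAC and mock at 6 weeks the 240 calls became 195 to 242 with another pseudocount, other filters, TMM scaling or robust moderation. A replicate block gave 199 calls (181 of them shared), and removal of mitochondrially encoded genes gave 231. Membership changed more than these counts. Of the 240 genes, 164 were kept with TMM scaling, 165 with mitochondrially encoded genes removed and 166 with no filter on level. With only the 2 groups in the fit the count was 133 (92 shared), and without the 3 libraries that stood apart 23. Leaving out 1 library gave 56 to 420. Between CAC and NCAC the 1397 calls became 904 with no filter, 733 with TMM scaling, 589 with only the groups compared and 772 (52.5% higher) with mitochondrially encoded genes removed, and 353 to 2492 when 1 library was left out. Between NCAC and mock there was 1 call with no filter, and 0 to 1 when 1 library was left out. The change from 6 to 8 weeks gave 0 calls throughout. The cause of these shifts was not tested. Whether the replicate numbers pair the samples cannot be told from so few same-numbered libraries. Same-numbered CAC and mock libraries had deviations correlated at 0.03, 0.18, 0.18, 0.12 and -0.19 for replicates 1 to 5, and 2 of 5 correlated best with their own number. The block gave 1351 calls between CAC and NCAC. Of the 73 named genes called, 15 lost the call with TMM scaling and 31 with only the groups compared. Depth limits genes near 1 TPM, where 1 TPM at 2000 exon bases is 27.9 reads.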

Other observations

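A few genes, chosen after their values were seen, fell into separate levels that did not follow the groups. Tuba1c, a tubulin gene, had 156, 133, 158, 75.4 and 86.6 TPM in CAC replicates 1 to 5, against 73.8, 3.84, 78.1, 165 and 5.05 TPM in mock replicates 1 to 5. Cwc22, a splicing factor gene, had 8.67, 7.56, 96.5, 8.94 and 231 TPM in CAC replicates 1 to 5, against 9.79, 7.93, 8.15, 7.94 and 7.67 TPM in mock replicates 1 to 5. Tpm3-rs7, a tropomyosin-related sequence, had 64.5, 1.12, 62.1, 58.7 and 63.2 TPM in CAC replicates 1 to 5, against 119, 126, 55.7, 59.1 and 0.481 TPM in mock replicates 1 to 5. In Tuba1c mock replicates 2 and 5 were low, in Cwc22 CAC replicates 3 and 5 were high, and the cause was not tested.

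Single genes also stood high in the 3 libraries set apart. In CAC replicate 2, C1qa, a complement gene of microglia, was at 331 TPM, and Ccl5, a chemokine gene, at 7.69 TPM. In CAC replicate 1, Pmch and Hcrt, peptide genes of the lateral hypothalamus, were at 155 and 25.02 TPM. In mock replicate 1, Jchain, the joining chain of secreted antibodies, was at 8.66 TPM.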
